A study of Mus musculus with 4 samples.

Results

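The 35 genes described here belong to the unfolded protein response and its endoplasmic reticulum (ER) chaperones. A member was measured by a probe set annotated to its symbol alone, and where a gene had several of these, the one with the highest mean over the 4 arrays was taken. All 35 were found among 19938 named genes. Their levels were determined in the liver of 4 male aP2-SREBP-1c mice, 24 weeks of age, on a C57Bl6 background. These mice carry human SREBP-1c in its transcriptionally active N-terminal form. The transgene is driven by the aP2 promoter in adipocytes and not in the liver, so that the fatty liver accompanies lipodystrophy and insulin resistance of the whole animal. They were described as male littermates, were fed regular chow and were killed at 7 am. RNA with an integrity number above 8 was used, and each liver was hybridized to 1 Mouse Gene 1.0 ST array. In the same study, palmitate was tested in cultured hepatocytes with Chop (Ddit3) and Bip (Hspa5) as markers of ER stress, which raises the question how these genes and their pathway are expressed in the fatty liver itself. The mice form a single group, since livers of the study's other genotypes (C57Bl6, alb-SREBP-1c) are not analysed here. Consequently, levels within aP2-SREBP-1c liver and differences between single mice are given, with no p-value.

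When unfolded proteins accumulate in the ER, 3 sensors in its membrane respond. PERK (Eif2ak3) phosphorylates the translation factor eIF2alpha, which lowers protein synthesis in general but favours translation of ATF4. In turn, ATF4 raises transcription of CHOP (Ddit3) and of genes for amino acid supply. IRE1 (Ern1) removes an intron from the Xbp1 transcript, and the resulting factor XBP1 drives genes of ER-associated degradation, of folding and of translocation into the ER. ATF6 travels to the Golgi, is cleaved there, and its released part drives chaperone genes such as Hspa5. Hepatocytes secrete large amounts of plasma proteins and hold a dense ER, and the lipid load of the fatty liver is a known trigger of this response. Splicing of Xbp1, cleavage of ATF6 and phosphorylation of eIF2alpha are not seen by the probes of this array. The members were assigned to a PERK-ATF4 arm (8 genes), an IRE1-XBP1 arm (12 genes) and an ATF6 arm (14 genes), and Creb3l3 was kept apart. XBP1 and ATF6 share many targets, so that the assignment to these arms overlaps in nature.

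The promoters of the members are described by arm, as background to the comparison of the arms below. RefSeq promoter windows of assembly GRCm38.p6, from 250 bases before to 50 bases after the gene start, were at hand for 31 of the 35 members (33 windows). They were searched on both strands for the ER stress response element ERSE (CCAAT and CCACG with any 9 bases between them), to which NF-Y binds together with ATF6 or XBP1, for its variant ERSE-II (ATTGG and CCACG with any 1 base between them), for the core of the unfolded protein response element UPRE (TGACGTG) and for the C/EBP-ATF response element CARE (TGATGNAA), a site of ATF4. ERSE occurred in 9 of the 33 windows (27.3%), against 0.119% of all 32851 windows. ERSE-II occurred in 2 windows (6.06%), against 0.0365% of all windows. Of the 11 windows of the ATF6 arm, 8 held ERSE or ERSE-II, as did 3 of 12 windows of the IRE1-XBP1 arm and 0 of 8 windows of the PERK-ATF4 arm. In the following stretches the ERSE or ERSE-II match is in capitals, and the letters run in the direction of the gene. Reverse matches begin with CGTGG. For Hspa5 all 250 bases before the gene start are given, with the ERSE match beginning 65 bases upstream of it.
Hspa5 (chr2:34771840-34772089, plus strand): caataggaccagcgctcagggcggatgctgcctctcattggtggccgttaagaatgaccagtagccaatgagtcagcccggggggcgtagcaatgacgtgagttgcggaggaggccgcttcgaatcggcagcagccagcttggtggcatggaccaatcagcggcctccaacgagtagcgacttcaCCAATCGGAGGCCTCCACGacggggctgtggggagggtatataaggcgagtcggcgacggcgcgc
Hsp90b1 (chr10:86705522-86705667, minus strand): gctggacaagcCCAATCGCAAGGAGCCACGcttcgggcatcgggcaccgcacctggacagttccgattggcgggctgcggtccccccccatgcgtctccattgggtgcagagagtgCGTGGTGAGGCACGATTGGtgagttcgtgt
Calr (chr8:84847064-84847104, minus strand): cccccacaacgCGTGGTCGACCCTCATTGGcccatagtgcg
Canx (chr11:50325789-50325829, minus strand): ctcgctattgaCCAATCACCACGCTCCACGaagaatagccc
Pdia6 (chr12:17266480-17266520, plus strand): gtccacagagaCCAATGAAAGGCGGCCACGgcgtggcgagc
Creld2 (chr15:88819509-88819549, plus strand): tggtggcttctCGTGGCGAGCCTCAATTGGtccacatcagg
Herpud1 (chr8:94386366-94386398, plus strand): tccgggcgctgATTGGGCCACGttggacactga
Dnajb11 (chr16:22857841-22857873, plus strand): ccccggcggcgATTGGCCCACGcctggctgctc
Dnajc3 (chr14:118937816-118937856, plus strand): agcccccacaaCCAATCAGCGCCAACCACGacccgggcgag
Syvn1 (chr19:6046521-6046561, plus strand): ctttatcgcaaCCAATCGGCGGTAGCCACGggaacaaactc
Derl3 (chr10:75893231-75893271, plus strand): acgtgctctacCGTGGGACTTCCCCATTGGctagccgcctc
Hsp90b1, which encodes the ER form of Hsp90, carried 2 matches, in opposite directions. No other member carried more than 1 ERSE or ERSE-II match. CARE was found in 4 of the 8 windows of the PERK-ATF4 arm (50%) and in 1 of 11 windows of the ATF6 arm, against 3.97% of all windows. The matches are in capitals below, with TTGCATCA and TTACATCA as matches on the opposite strand.
Asns (chr6:7693214-7693243, minus strand): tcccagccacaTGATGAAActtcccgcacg
Atf3 (chr1:191183425-191183454, minus strand): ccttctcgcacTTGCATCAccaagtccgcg
Chac1 (chr2:119351038-119351067, plus strand): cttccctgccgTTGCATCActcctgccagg
Trib3 (chr2:152344028-152344057, minus strand): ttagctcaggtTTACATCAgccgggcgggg
Herpud1 (chr8:94386306-94386335, plus strand): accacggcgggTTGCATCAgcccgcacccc
Herpud1 thus held an ERSE-II and a CARE match within the same window. UPRE was found in 1 member window, that of Hspa5, against 2.01% of all windows. A match describes letters and does not show that a factor binds there. The arms group genes by the factor taken to drive them. The shares of motifs by arm are therefore not independent of this assignment and do not test it.

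The deposited values are log2 expression values, and a difference of 1 is a doubling. A gene was taken as above background when it exceeded on each array a limit of 5.33 to 5.52, below which 95% of 1210 olfactory or vomeronasal receptor probe sets lay. This applied to 61.5% of all named genes. Hepatocyte markers were high on every array, with mean levels of 13.21 to 13.43 over 7 of 7 measured genes. The array of mouse 1 stood apart. Its values were compressed, so that among the 10% of genes with the highest levels 78.1% had their lowest value in mouse 1, whereas this was 9.94% among those with the lowest levels. Pancreatic acinar genes also differed between the mice. Of 14 measured, 11 were above background, and their mean level was 8.18, 6.23, 6.52 and 7.98 in mice 1 to 4. The linear signals of all 14 summed to 3880, 944, 1136 and 3220. Their part in the values of the members was not tested. In whole liver, fewer cells of a type and less RNA per cell cannot be told apart.

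Of the 35 members, 34 were above background. The exception was Trib3, a pseudokinase induced by ATF4 and CHOP, with levels of 5.39, 5.54, 5.54 and 5.61 in mice 1 to 4, which missed the limit in mouse 1 only. Between the highest and the lowest mouse, 9 of the 34 members differed by more than 1.5-fold, whereas 12.9% of all genes above background did so. More than 2-fold was found for 3 members (Dnajb9, Creld2 and Derl2), against 1.13% of all genes above background. The 9 were Dnajb9, Creld2, Derl2, Asns, Sdf2l1, Eif2ak3, Sel1l, Atf6 and Pdia4. The nearest member below this limit was Hspa5 at 1.49-fold, and the nearest above it was Pdia4 at 1.57-fold. The median SD between mice was 0.21 for the members and 0.15 for all genes above background, and 25 of the 34 members had an SD above 0.15, the value that 50% of all genes above background exceed. Without mouse 1, the count dropped to 4 members (Asns, Dnajb9, Sdf2l1 and Creld2), and the share of all genes to 2.67%. Mice 2 and 3 were close to each other. No member differed by more than 1.5-fold between them, and only 0.4% of all genes above background did, so that this count does not set the members apart. The median absolute difference was 0.078 for the members and 0.11 for all genes above background.

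**Figure D1:**
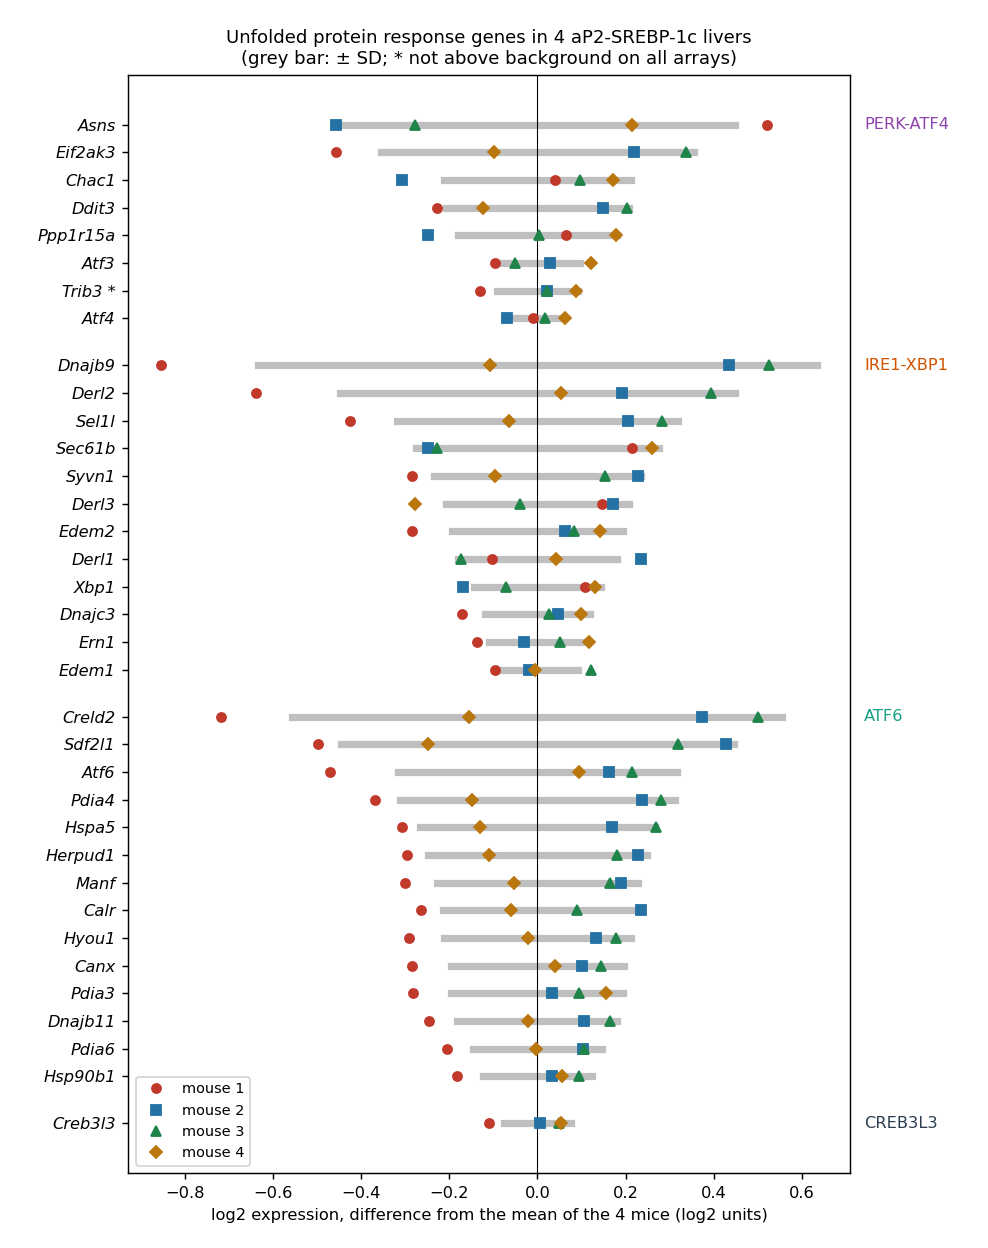
Log2 expression of the 35 members in each of the 4 aP2-SREBP-1c livers, centred on each gene's mean and ordered by SD within each arm. Symbols stand for mice and grey bars for ± SD. Mouse 1 is lowest for all 14 genes of the ATF6 arm, whereas Asns, Sec61b and Xbp1 were higher in mouse 1 than in mice 2 and 3.

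In the ATF6 arm, all 14 genes were above background and all 14 had their lowest value in mouse 1, against 46.1% of all genes above background. In 12 of them mouse 4 was second lowest, a pattern seen in 22.6% of all genes above background. The arms were chosen with earlier results of these data known, so these counts are descriptive and no independent test. When each mouse was set against the average of its 3 companions, the median difference of the arm was -0.39 in mouse 1, 0.22 in mouse 2, 0.23 in mouse 3 and -0.050 in mouse 4. Mice 1 and 4 were also those with the high acinar values, whose part in this pattern was not tested. In comparison, all genes above background had median differences of -0.084, 0.026, 0.052 and 0.015. Genes of high level tended to be lowest on this array in general, as given above, and the part of this in the result was examined by scaling. After cyclic loess normalization, which removes differences between arrays that depend on the level, all 14 genes were still lowest in mouse 1, against 33.1% of all genes above background. For several of them mice 1 and 4 were then almost level, as for Hspa5 (11.74 and 11.77) and Herpud1 (10.82 and 10.83). The distance was larger for others, such as Creld2 (7.86 and 8.23) and Atf6 (8.66 and 9.03). The median difference in mouse 1 was then -0.19, against -0.007 for all genes above background. After quantile normalization 13 of 14 were lowest in mouse 1, against 36.1% of all genes above background, and the median difference was -0.21.

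Hspa5 encodes BiP, the Hsp70 chaperone of the ER that holds the 3 sensors inactive. Its levels in mice 1 to 4 were 11.60, 12.08, 12.18 and 11.78, with a mean of 11.91 ± 0.27 (SD, n = 4) and a 95% confidence interval of 11.67 to 12.14 from a one-group limma fit. Mice 1 and 4 were both lower than mice 2 and 3. The range of 1.49-fold was 1.27-fold after cyclic loess normalization. Hyou1, a large Hsp70 relative that serves as an exchange factor for BiP, was measured at 9.06, 9.49, 9.53 and 9.33. Hsp90b1 (GRP94), the ER form of Hsp90, varied least of the arm (11.69, 11.90, 11.96 and 11.92). Hsp90b1 differed between mice 2, 3 and 4 by no more than 1.04-fold.

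The largest spread of the ATF6 arm was found for Creld2, which encodes a small stress-inducible protein of the ER. Creld2 was measured at 7.72, 8.81, 8.94 and 8.28 (8.44 ± 0.56, SD, n = 4), a 2.32-fold range. Sdf2l1, a partner of the BiP co-chaperone Dnajb11, was measured at 6.97, 7.90, 7.79 and 7.23 (7.47 ± 0.44, SD, n = 4), a 1.90-fold range. In both genes the values of mice 1 and 4 lay below those of mice 2 and 3, and the range without mouse 1 was 1.57-fold for Creld2 and 1.60-fold for Sdf2l1. The sensor Atf6 itself was measured at 8.51, 9.14, 9.20 and 9.07 (8.98 ± 0.32, SD, n = 4). Here only mouse 1 stood low, and the range without it was 1.09-fold. Manf, a secreted ER protein with protective effects on stressed cells, had values of 7.72, 8.21, 8.18 and 7.97, lowest in mouse 1 and second lowest in mouse 4.

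Of the protein disulfide isomerases, which form and rearrange disulfide bonds in the ER, Pdia4 was measured at 10.23, 10.83, 10.87 and 10.45 (10.59 ± 0.31, SD, n = 4). Its second probe set, at a mean of 6.10, was also lowest in mouse 1. Pdia3, which works with the lectin chaperones on glycoproteins, had values of 10.94, 11.26, 11.32 and 11.38, and Pdia6 of 10.41, 10.72, 10.72 and 10.61. In contrast to Pdia4, Pdia3 was not lower in mouse 4 than in mice 2 and 3. The lectin chaperones calreticulin (Calr) and calnexin (Canx) were expressed at 11.25 ± 0.21 and 11.29 ± 0.20 (SD, n = 4 each), the BiP co-chaperone Dnajb11 at 8.17 ± 0.18 and Herpud1, a membrane protein of ER-associated degradation, at 10.96 ± 0.25. In these 4 genes the range was between 1.33-fold and 1.44-fold.

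The IRE1-XBP1 arm was divided. All 12 genes were above background, and 8 had their lowest value in mouse 1, 2 in mouse 2 and 1 each in mice 3 and 4. Of all genes above background, 46.1% were lowest in mouse 1, 18.8% in mouse 2, 16.5% in mouse 3 and 18.7% in mouse 4. After cyclic loess normalization 5 of the 12 were lowest in mouse 1, against 33.1% of all genes above background. The sensor Ern1 varied little (8.01, 8.12, 8.21 and 8.27, SD 0.11). Xbp1 was measured at 10.16, 9.88, 9.98 and 10.18 (10.05 ± 0.14, SD, n = 4). Thus, in contrast to the genes of the ATF6 arm, the total Xbp1 transcript was higher in mice 1 and 4 than in mice 2 and 3, by 1.23-fold at most. The probe set does not separate the spliced from the unspliced form.

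Dnajb9 (ERdj4), a co-chaperone of BiP and a well-known XBP1 target, had the largest SD of all members. Its levels were 8.80, 10.09, 10.18 and 9.55 in mice 1 to 4 (9.66 ± 0.63, SD, n = 4), a 2.60-fold range. Mouse 1 was lowest and mouse 4 lay between mouse 1 and mice 2 and 3. The range was 2.19-fold after cyclic loess normalization and 1.55-fold without mouse 1. Derl2, a membrane protein in the export of misfolded proteins from the ER, was measured at 8.81, 9.64, 9.85 and 9.50 (9.45 ± 0.45, SD, n = 4), a 2.05-fold range. The range of Derl2 without mouse 1 was 1.27-fold. Sel1l, the adaptor of the ubiquitin ligase of ER-associated degradation, had values of 8.96, 9.59, 9.67 and 9.32, and Syvn1 (HRD1), the ligase itself, of 7.72, 8.23, 8.16 and 7.91. Derl2 and both members of this complex were thus lowest in mouse 1 and second lowest in mouse 4.

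Edem1, Edem2, Derl1 and Derl3 did not share this order. Edem1 and Edem2, which mark misfolded glycoproteins by trimming their sugars, were measured at 9.42, 9.50, 9.64 and 9.51, and at 7.50, 7.85, 7.87 and 7.93. Edem1 had the smallest SD of the arm (0.091). Derl1 was lowest in mouse 3 (9.25, 9.59, 9.18 and 9.40). Derl3, a relative of Derl1 and Derl2, was close to the background limit at 5.98, 6.00, 5.79 and 5.55 and was lowest in mouse 4. Dnajc3 (p58IPK), a co-chaperone of BiP, was measured at 10.25, 10.47, 10.45 and 10.52, with 2 probe sets of identical values. Sec61b, a subunit of the channel through which proteins enter the ER, was measured at 9.10, 8.64, 8.66 and 9.15, higher in mice 1 and 4 than in mice 2 and 3. Its 3 probe sets had means of 8.89, 8.23 and 7.68 and carry the same accessions, so that near-identical copies may contribute and the level of Sec61b is uncertain.

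**Figure D2:**
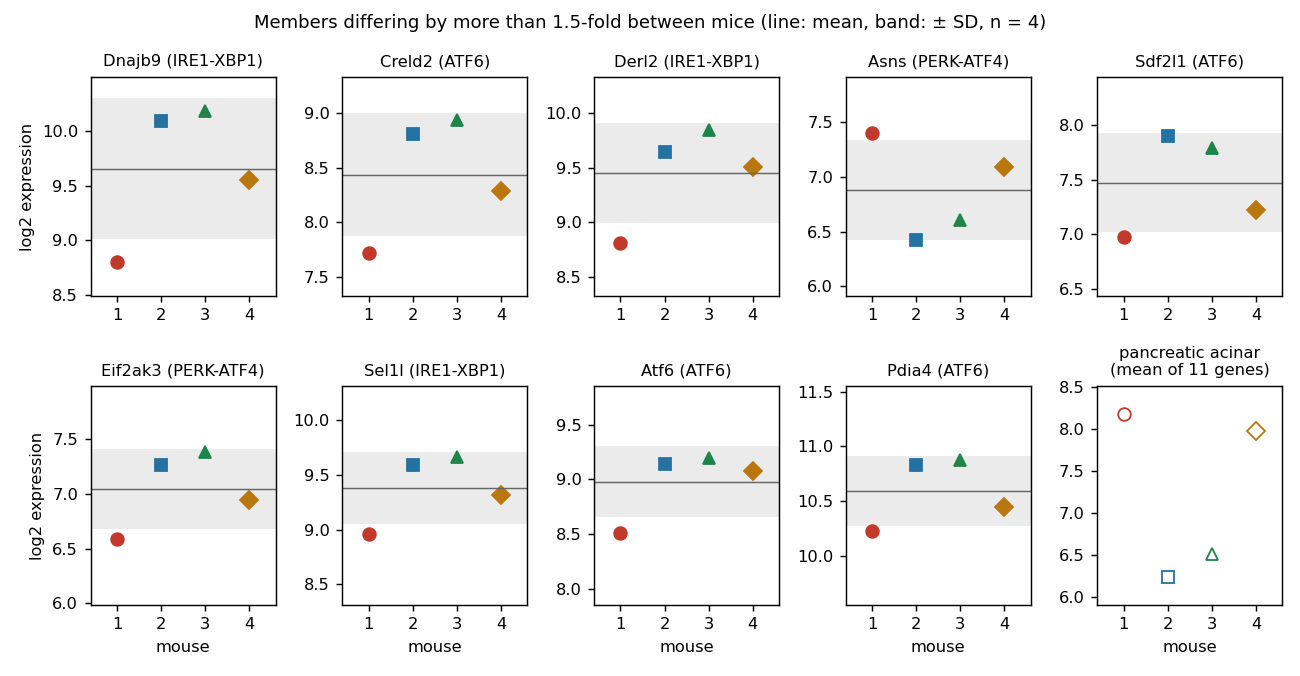
Log2 expression in each of the 4 aP2-SREBP-1c livers for the 9 members that spanned more than 1.5-fold, each on an axis of equal span, and the mean level of 11 pancreatic acinar genes on a wider axis. Lines stand for the mean and bands for ± SD. Asns was highest in mouse 1, at 7.40, whereas the other 8 members were lowest in mouse 1.

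In the PERK-ATF4 arm, 7 of 8 genes were above background. The lowest value was in mouse 1 for 3 of them and in mouse 2 for 4, against 46.1% and 18.8% of all genes above background. In 4 the highest value was in mouse 4, against 24.9% of all genes above background. The sensor Eif2ak3 (PERK) followed the genes of the ATF6 arm. It was measured at 6.59, 7.27, 7.38 and 6.95 (7.05 ± 0.36, SD, n = 4), a 1.73-fold range that was 1.35-fold without mouse 1. The transcript of Atf4, whose protein level is set mainly by translation, had the smallest SD of all members (7.75, 7.69, 7.78 and 7.82, SD 0.055). Ddit3, which encodes the proapoptotic factor CHOP, was measured at 6.08, 6.46, 6.51 and 6.19, with a mean of 6.31 ± 0.21 (SD, n = 4) and a 95% confidence interval of 6.10 to 6.52 from the one-group limma fit. Ddit3 was lower in mice 1 and 4 than in mice 2 and 3, by 1.35-fold at most. Its smallest distance from the background limit was 0.56.

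Asns, the amino acid response gene that encodes asparagine synthetase, showed the opposite order. Mice 1 to 4 had levels of 7.40, 6.42, 6.60 and 7.09 (6.88 ± 0.45, SD, n = 4), a 1.97-fold range that was 2.06-fold after cyclic loess normalization. Without mouse 1 it was still 1.59-fold, with mouse 4 above mice 2 and 3. The mean level of the 11 pancreatic acinar genes had the same order of mice. Of these genes, 9 were highest in mouse 1 and 2 in mouse 4, and 8 were lowest in mouse 2 and 3 in mouse 3. Their part in the values of Asns was not tested. Chac1, which degrades glutathione, was measured at 6.80, 6.46, 6.86 and 6.94, lowest in mouse 2. Ppp1r15a (GADD34), the phosphatase subunit that restores protein synthesis, was measured at 5.83, 5.52, 5.77 and 5.95, only 0.17 above the limit in mouse 2. Atf3, a factor induced by ATF4 and by many acute stimuli, was measured at 6.23, 6.35, 6.27 and 6.44, with an SD of 0.096. Accordingly, Ddit3, Chac1, Ppp1r15a and Atf3 each differed by less than 1.5-fold between mice.

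Creb3l3 (CREBH) encodes an ER-bound factor of the liver that is cleaved like ATF6 and acts on genes of triglyceride metabolism and the acute phase. It was measured at 8.93, 9.05, 9.09 and 9.10 (9.04 ± 0.076, SD, n = 4), a 1.12-fold range. Of 10 genes listed as its targets, 9 were measured and all were above background. Of these, 3 differed by more than 1.5-fold, against 12.9% of all genes above background. Apoa4, an apolipoprotein of triglyceride-rich particles, was measured at 11.94, 12.82, 12.74 and 12.27. Cidec, a lipid droplet protein, had values of 8.39, 8.98, 9.02 and 8.73, and the pentraxin Apcs of 8.72, 9.03, 9.31 and 9.01. All 3 were lowest in mouse 1, against 46.1% of all genes above background. In the upper 3 of 10 classes of level, this share was 68.9% to 78.1%. Fgf21, a hepatokine that is also induced by ATF4, was measured at 6.54, 6.40, 6.40 and 6.80, highest in mouse 4.

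Set side by side, the arms had similar spread but different patterns over the mice. The median SD was 0.21 for the PERK-ATF4 arm, 0.20 for the IRE1-XBP1 arm and 0.22 for the ATF6 arm. In mouse 1, the median difference calculated as above was -0.013 for the PERK-ATF4 arm, -0.21 for the IRE1-XBP1 arm and -0.39 for the ATF6 arm. After cyclic loess normalization it was 0.024, -0.013 and -0.19, so that the IRE1-XBP1 arm lay close to all genes above background (-0.007) and the ATF6 arm below them. In mouse 4, the PERK-ATF4 arm had a median difference of 0.16, the IRE1-XBP1 arm of 0.063 and the ATF6 arm of -0.050. The values of the IRE1-XBP1 and ATF6 arms in mouse 4 had no stable sign. With 1 other mouse left out, the IRE1-XBP1 arm lay between -0.023 (without mouse 1) and 0.14 (without mouse 2), and it was at 0.007 after cyclic loess normalization. The ATF6 arm was at -0.20 without mouse 1, 0.023 without mouse 2 and 0.033 without mouse 3. The difference between the arms was not tested, since the array of mouse 1 is a single one. The arms were also chosen with earlier results of these data known. Classes by function are given for the deposited values only. On that scale, all genes in the highest of 10 classes of level had a median difference of -0.23 in mouse 1. By function, the median difference in mouse 1 was -0.66 for the small ER proteins Sdf2l1, Creld2 and Manf, -0.61 for the 3 sensors and -0.38 for 8 genes of ER-associated degradation. For the Hsp70 and Hsp90 chaperones, the J-domain co-chaperones, the lectin chaperones and the disulfide isomerases it lay between -0.39 and -0.33. The transcription factors Atf4, Ddit3, Atf3, Xbp1 and Creb3l3 had a median difference of -0.13 and a median SD of 0.096. The remaining classes were higher in mouse 1, with a median difference of 0.29 for Sec61b and of 0.086 for the ATF4 and CHOP targets. Of these targets, Chac1 was at 0.053, Ppp1r15a at 0.086 and Asns at 0.69. Ppp1r15a is close to background, and all genes in the lowest class of level had a median difference of 0.13 in mouse 1. The value of Ppp1r15a is thus not set apart from genes of low level.

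**Figure D3:**
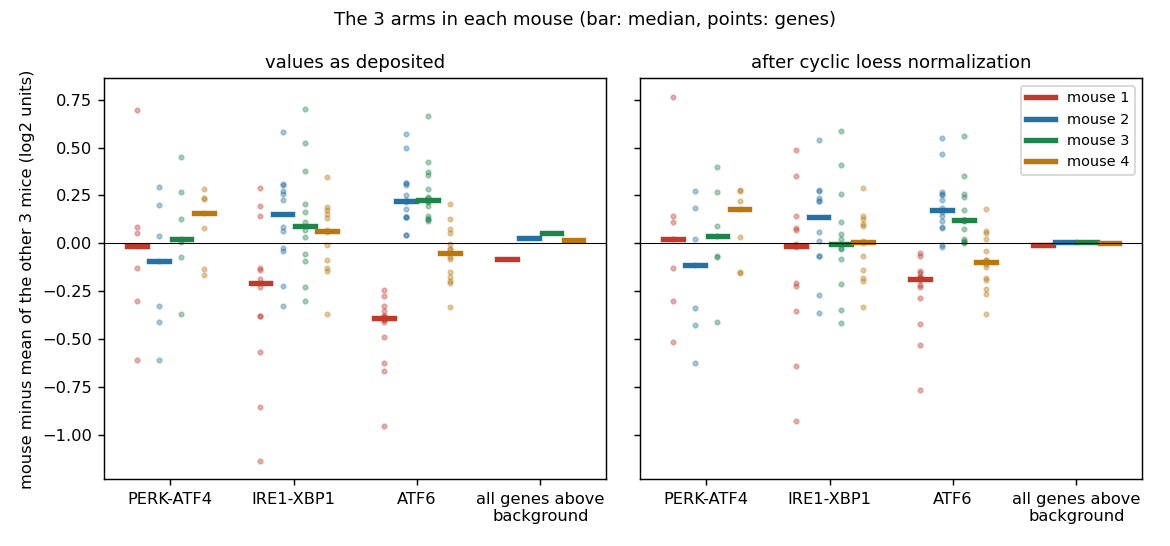
Log2 difference between each mouse and the average of its 3 companions for the genes above background of the 3 arms and for all genes above background, with the values as deposited (left) and after cyclic loess normalization (right). Bars stand for medians and points for genes. The median of the ATF6 arm in mouse 1 was -0.39 with the deposited values and -0.19 after cyclic loess normalization.

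Among members with a promoter window, 10 of the 11 that carried ERSE or ERSE-II were lowest in mouse 1, the exception being Derl3, and so were 13 of 19 without such a match that were above background. Of all genes above background, 46.1% were lowest in mouse 1, and 68.9% to 78.1% of those in the upper 3 of 10 classes of level. Of the 11 carriers, 8 belong to the ATF6 arm, all of which was lowest in mouse 1, so that the motif and the arm cannot be told apart here. Their median difference in mouse 1 was -0.35 with a match and -0.18 without. The members with the largest SD were found in both classes, since Creld2 carried ERSE, whereas Dnajb9, Derl2 and Sdf2l1 did not carry these letters in their windows. Asns carried the CARE match closest to its gene start on the upstream side, 23 bases before it. The other carriers Atf3, Chac1, Herpud1 and Trib3, which was not above background, did not have their highest value in mouse 1.

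Other genes of the pathway were taken from lists compiled from general knowledge. Of 26 further ATF4 targets, 25 were measured and 22 exceeded background. Their median SD was 0.10, with a median difference in mouse 1 of 0.002. More than 1.5-fold was found for 2 of them, against 12.9% of all genes above background. Phgdh, the first enzyme of serine synthesis, was measured at 5.78, 6.75, 6.54 and 6.47, and the stress protein Sesn2 at 6.00, 6.08, 6.46 and 6.62. Neither had the order of Asns. Of the kinases and subunits around eIF2, 13 of 13 measured genes were above background. More than 1.5-fold was seen for 0 of these, against the same 12.9%. The median difference in mouse 1 was -0.30, against -0.084 for all genes above background and -0.23 in the highest of 10 classes of level. In 11 of the 13, mouse 1 was lowest, against 46.1% of all genes above background.

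Of 28 further genes of ER folding, 27 were above background and 4 differed by more than 1.5-fold, a share near the 12.9% of all genes above background. These were Fkbp7, a prolyl isomerase (6.29, 7.28, 7.50 and 6.69), Hspa13, an Hsp70 relative (7.78, 8.69, 8.94 and 8.27), Txndc12, a thioredoxin-like protein (7.46, 8.01, 8.40 and 7.99), and Dnajc10, a disulfide reductase with a J domain (7.01, 7.56, 7.71 and 7.36). All 4 were lowest in mouse 1, against 46.1% of all genes above background. In all 4, mouse 4 was second lowest, an order of mice 1 and 4 seen in 22.6% of all genes above background. The 4 genes were picked for their range. Without mouse 1, the share of all genes over 1.5-fold fell to 2.67%, so that the shared order is only descriptive. P4hb, the principal disulfide isomerase, was measured at 12.04, 12.39, 12.33 and 12.16. Of 30 measured genes of translocation and glycosylation, all were above background. More than 1.5-fold was seen for 2 of these, against 12.9% of all genes above background. They were Sec11a of the signal peptidase (8.81, 9.66, 9.67 and 9.40) and Stt3b of the oligosaccharyl transferase (9.34, 9.98, 10.01 and 9.81). Of 19 further measured genes of ER-associated degradation, all were above background and 0 differed by more than 1.5-fold, against the same 12.9%.

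Among 20 measured regulators of the response, 18 were above background. Nfe2l2 (NRF2), a substrate of PERK, was measured at 9.02, 9.92, 9.98 and 9.52, a 1.94-fold range. Rtcb, the ligase that joins the cleaved Xbp1 transcript, was measured at 7.30, 7.96, 7.86 and 7.91, a 1.59-fold range. Mbtps1, the Golgi protease that cleaves ATF6, had values of 7.21, 7.56, 7.70 and 7.56. Of the proapoptotic genes, Bak1 (6.76, 7.01, 6.94 and 6.79) and Bbc3 (6.22, 6.28, 5.88 and 5.85) were above background. Bcl2l11 (5.43, 5.56, 5.78 and 5.64) missed the limit in mouse 1 only. Casp12 (4.40, 4.93, 5.12 and 4.43) lay below it on each array. The median difference in mouse 1 was -0.24 for ER folding, -0.21 for translocation and glycosylation, -0.18 for ER-associated degradation and -0.17 for the regulators, each closer to that of all genes above background (-0.084) than the ATF6 arm. Over all genes in the upper 3 of 10 classes of level, the median was -0.21, -0.22 and -0.23. In the class below these it was -0.15. These lists are thus not set apart from genes of such levels. The genes around eIF2 were lower in mouse 1, at -0.30.

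**Figure D4:**
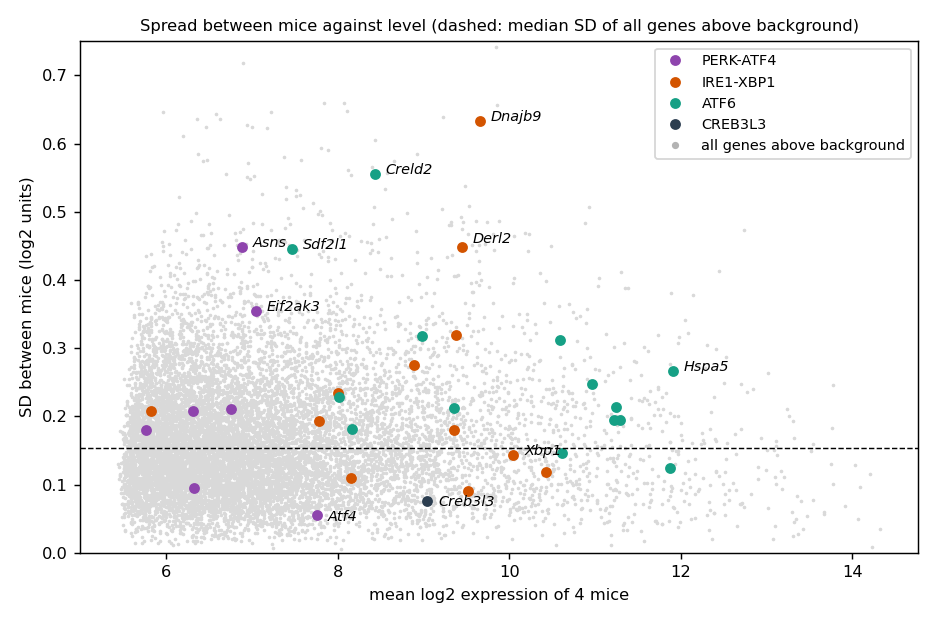
SD between the 4 mice, in log2 units, against the mean log2 expression for the 34 members above background, coloured by arm, and for all genes above background in grey. The dashed line is the median SD of all genes above background (0.15), and 23 genes with an SD over 0.75, none of them members, lie outside the axis. Dnajb9 (0.63) and Creld2 (0.56) varied most and Atf4 (0.055) least.

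Cell types other than hepatocytes were followed by their markers. Of 7 measured genes of plasma cells, which depend on XBP1 for secretion, 3 were above background. Sdc1 was measured at 8.58 to 8.68, whereas Mzb1 (5.81 to 6.16) and Ighm (5.58 to 5.90) were close to the limit. Jchain, Tnfrsf17, Prdm1 and Irf4 were not above background. Macrophage genes (8 of 8 above background) had a median difference of -0.11 in mouse 1 and of 0.15 in mouse 4. The hepatocyte markers had a median difference of -0.095 in mouse 1 with the deposited values and of 0.069 after cyclic loess normalization. The part of these cell types in the values of the members was not tested.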

How the data were processed

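Liver RNA (150 ng) of 4 mice was analysed, 1 array per mouse. The deposited values are log2 expression values per probe set, which the authors obtained with RMA, using the Affymetrix Expression Console. The sources used here do not say which arrays were normalized together or which genome build was used. No column (0) lacked a sample. Of 35556 probe sets, 21789 had 1 symbol in the platform annotation, 1621 several and 12146 none here. All 35 members were found in the RefSeq table of GRCm38.p6, 3 with several probe sets. Means, SDs and 95% confidence intervals come from a one-group fit across all named genes (limma 3.58.1, R 4.3.3). The interval draws each variance towards that of the other genes. Counts, medians and promoter matches were computed in Python 3.11.15 and tested on simulated data. Members, arms and lists were chosen with earlier results of these data known. Named with values are the sensors, the transcription factors, Hspa5, all members over 1.5-fold, those of largest or smallest SD and genes over 1.5-fold of further lists. Other named genes were chosen after their values were seen. The number of arrays limits the precision. Alternatives were other scalings, limits, probe set rules and arms, and leaving out each mouse.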

Additional observations from a re-analysis of the deposited data

Results flagged for a closer look

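None of the 35 members had 1 mouse that stood apart from the other 3 by Dixon's criterion at the 95% level, and neither had the medians of the 3 arms. Among all genes above background, 5.75% met this criterion, and chance gives about 1 in 20.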

How the results depend on the processing

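The count of members above background kept within 1.5-fold of its value of 34 under all alternatives. The count of members with more than 1.5-fold between mice was 9, and 3 with a 2-fold range, and it ranged from 4 to 9 when 1 mouse was left out, the lowest without mouse 1. It was 7 after quantile or cyclic loess normalization (10.6% and 9.92% of all genes), where Sec61b was added and Sel1l, Atf6 and Pdia4 were lost. Over all genes, 1584 passed 1.5-fold and 138 passed 2-fold. This number was 3749 if genes at background were kept, and 328 to 1290 with single mice removed. Of 280 member levels, 278 shifted by under 1 SD. When probe sets were averaged, Sec61b (8.26) and Pdia4 (8.35) shifted by more. Most of this count was fixed in advance. Leaving out 1 mouse or centring the arrays cannot move a mean by 1 SD. Averaging changes nothing for genes with 1 probe set. The count is therefore no measure of stability. Of 39 median SDs, 37 stayed within their jackknife error. This error comes from the values with 1 mouse left out, which are among the 39, so that the count is no independent check. When single mice were removed, the median SD ranged from 0.11 to 0.22 for the PERK-ATF4 arm and from 0.12 to 0.27 for the ATF6 arm. Of 140 median differences in single mice, 135 shifted by less than the spread over mice. The IRE1-XBP1 arm in mouse 1 was at -0.037 after quantile and -0.013 after cyclic loess normalization. The PERK-ATF4 arm without its sensor and Atf4 was at -0.33 in mouse 2. With 1 other mouse left out, the PERK-ATF4 arm in mouse 1 ranged from -0.094 to 0.016, and the IRE1-XBP1 arm in mouse 2 from -0.023 to 0.19, with the change of sign without mouse 1. The cause was not tested. Values of Ppp1r15a, Derl3 and Trib3 are limited by their closeness to background. No paired analysis was possible because there is only 1 group of mice.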
